A study of Drosophila melanogaster with 18 samples.

Results

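The genes described here make, degrade or answer to juvenile hormone (JH), a lipid hormone of insects. They are jhamt, Jhe, Jheh1, Jheh2, Jheh3, Met, gce, Kr-h1, JhI-21 and JhI-26, a list of 10 genes chosen by name among 17869 genes of the count table and followed across groups of flies. RNA had been sequenced from whole w1118 flies, a white-eyed laboratory strain kept on sugar and yeast food. In all, 18 libraries fall into 3 groups of 6: day 0 flies, labelled as control, day 2 flies fed vehicle, whose composition the labels do not give, and day 2 flies fed 1 µM cycloheximide (CHX), a blocker of translation elongation, in the food. The paper's account of its RNA-seq names older flies and the oxidant paraquat, which these labels do not, and the groups here follow the labels. Neither the sex of the flies nor a separate culture for each library is given in the labels, so the p-values speak only for the spread among these libraries, part or all of which may be technical.

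JH is made in the corpora allata, small glands next to the brain, where jhamt methylates its acid precursor in a late step of synthesis. The esterase Jhe and the epoxide hydrolases Jheh1, Jheh2 and Jheh3 break the hormone down. Met and gce, a pair of related bHLH-PAS proteins, are its intracellular receptors, and Kr-h1, a zinc finger protein, is a direct target that they induce. In adult flies JH is known for promoting yolk production and egg maturation. The comparisons ask what transcripts of this pathway did between day 0 and day 2 and whether CHX feeding altered them.

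Between day 0 and day 2 on vehicle, the mRNA of the esterase Jhe fell to a small fraction of its day 0 level, and the receptor genes moved in opposite directions, Met upward and gce downward. JhI-21, an amino acid transporter gene first found as JH-inducible, rose, and JhI-26, another gene found that way, fell. The synthesis gene jhamt, the hydrolase gene Jheh3 and Kr-h1 did not pass the test. With CHX, each of the 5 genes that had moved was found near its day 0 level. None of the tested genes passed the test against day 0. Of all 11051 tested features, 82.9% changed with vehicle and 0.552% differed between CHX and day 0. Neither count is therefore particular to these genes.

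Total counts ran from 27180491 to 37879190 per library at day 0, from 21495631 to 27217129 with vehicle and from 24033830 to 38519240 with CHX. Levels are given as CPM, a gene's counts relative to its library's total, scaled by edgeR's TMM factors, which ran from 0.892 to 0.916 at day 0, 1.24 to 1.31 with vehicle and 0.823 to 0.929 with CHX. The composition of the vehicle libraries thus differed widely from that of the others. The 5 muscle markers Mhc, Act88F, Mlc2, up and fln, which a whole fly should express, summed to 51371 to 61276 CPM at day 0 and to 53775 to 63978 CPM with CHX, but to 692 to 1226 CPM with vehicle. Act88F had a median of 13664 CPM at day 0, 10.2 CPM with vehicle and 13994 CPM with CHX. The medians of up were 4790, 173 and 4939 CPM. The summed level of 5 neuron markers was 317 to 580 CPM at day 0, 89.3 to 177 CPM with vehicle and 388 to 560 CPM with CHX, and that of 5 ovary markers 192 to 442, 1808 to 5593 and 173 to 278 CPM. Testis markers summed to 0.574 to 10.3 CPM and markers of the male accessory gland to 0.112 to 0.648 CPM over all libraries, with SP at 0 throughout. Akh, the hormone of the corpora cardiaca, which lie beside the corpora allata, had 3.03 to 4.98 CPM at day 0, 1.81 to 2.90 CPM with vehicle and 3.60 to 4.89 CPM with CHX. For every gene below, fewer cells of a type, less RNA per cell and a difference in the tissue sampled cannot be told apart here. The part of these markers in the results was not tested.

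What could be counted differed between the genes. Positions are from Ensembl's BDGP6.54 annotation. Exon positions that 2 annotated genes share gave no counts, on either strand: all 71 protein-coding genes whose exons are fully covered by genes of the opposite strand, and all 240 fully covered on their own strand, had 0 counts in all 18 libraries, against 357 of 9164 (3.90%) among genes with no shared position. Jheh1 (FBgn0010053, 2R from 18853434 to 18855087) lies wholly under the antisense RNA asRNA:CR46485, which spans 2R from 18853372 to 18861263, and had 0 counts throughout. Its neighbor Jheh2 (FBgn0034405, 2R from 18855767 to 18858245) keeps 161 of 1926 exon bases to itself and had 7 counts in all, 3 in vehicle replicate 2 and 4 in vehicle replicate 6. These zeros give no measure of either gene, and both were left without a test. Jheh3 (FBgn0034406, 2R from 18860375 to 18862078) keeps 796 of its 1576 exon bases.

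**Figure D1:**
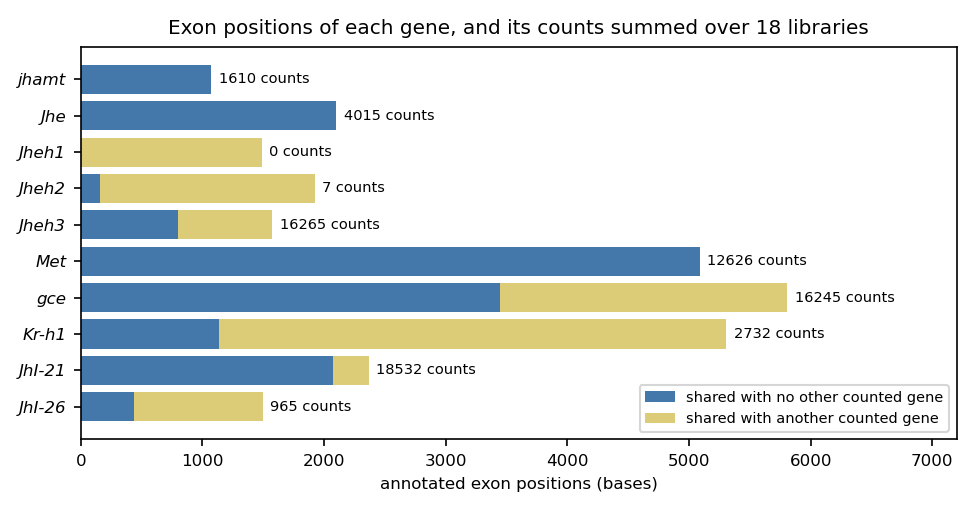
Annotated exon positions of each gene in bases, divided into those shared with no other counted gene (blue) and those shared with another (yellow); the text at each bar is the gene's count summed over 18 libraries. Jheh1 has no unshared position and 0 counts, Jheh2 161 unshared bases and 7 counts, while jhamt, Jhe and Met share no position.

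Kr-h1 (FBgn0266450, 2L from 6082603 to 6096498) was measured over a part of one transcript. The gene CG45075, annotated on the same strand, covers all but 1138 of its 5306 exon bases. Those 1138 bases, 2L from 6082603 to 6083740, are the first exon of the longer transcript, FBtr0344437, 1 of the 2 annotated. The other transcript, FBtr0344438, has 0 unshared bases. CG45075 itself had 0 counts. The values of Kr-h1 given below therefore come from the first exon of the longer transcript and say nothing of the other. gce keeps 3445 of 5809 exon bases, JhI-21 2073 of 2368 and JhI-26 441 of 1495. The remaining genes, jhamt (FBgn0028841, 2L from 16365903 to 16367039), Jhe (FBgn0010052, 2R from 16119793 to 16122773) and Met (FBgn0002723, X from 11616124 to 11621280), share none.

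Per kilobase of unshared exon, which allows levels of different genes to be set side by side, Jheh3 was the highest at day 0 with a mean of 40.0 CPM per kb ± 8.12 (SD, n = 6). gce and JhI-21 followed with 10.7 ± 1.51 and 10.6 ± 0.875 CPM per kb, and did not differ beyond their spread. Next came Jhe (5.77 ± 1.16), Kr-h1 (5.27 ± 2.22), JhI-26 (4.69 ± 1.42), Met (3.82 ± 0.367) and jhamt (2.69 ± 0.320), of which each neighboring pair from Jhe to Met lay within 1 SD of each other. Jheh3 led in every group, with 38.8 ± 8.76 CPM per kb on vehicle and 39.0 ± 6.68 with CHX, and in vehicle flies JhI-21 was next at 29.2 ± 3.22 and Jhe was last at 0.221 ± 0.0996. Reads that span a shared and an unshared position may have been lost, so these levels are approximate for the genes with shared exons.

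Of the 8 genes that passed the filter on low counts, 5 changed between day 0 and vehicle (62.5%), 2 upward and 3 downward, where 82.9% of all 11051 tested features changed (41.8% upward and 41.1% downward) by edgeR's quasi-likelihood test at an adjusted p under 0.05. For 4 of the 8 the libraries of the groups did not overlap, against 66.3% of all features. The share that changed was thus not above the background. The median log2 fold change of the 8 was -0.29, against -0.00 over all features. Between CHX and vehicle 5 of 8 changed as well, 3 upward and 2 downward, against 83.4% of all features (42% upward and 41.3% downward), and 4 did not overlap, against 66%. Both comparisons use the vehicle libraries, so that the opposite signs of the fold changes are partly given by the shared group, and the values of each are given side by side below.

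**Figure D2:**
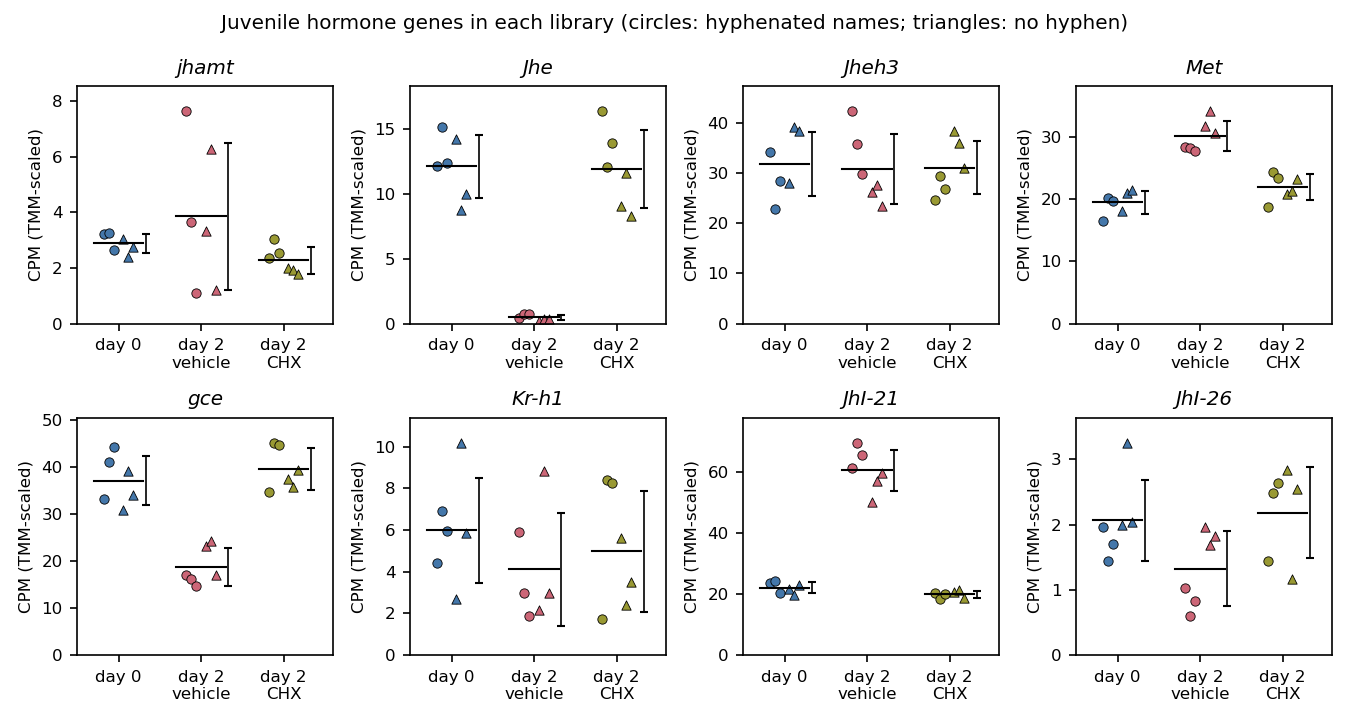
TMM-scaled CPM of the 8 tested genes in each library, by group (blue day 0, red day 2 vehicle, olive day 2 CHX), with circles for libraries with a hyphen in their name and triangles for the others; the line is the group mean and the bar beside it the SD (n = 6). Jhe in vehicle flies lies under 1 CPM in every library, Met and JhI-21 are higher and gce lower in all vehicle libraries, and jhamt and Kr-h1 spread widely.

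jhamt, the methyltransferase of JH synthesis, had a lowest, median and highest level of 2.41, 2.90 and 3.26 CPM at day 0 and of 1.77, 2.18 and 3.06 CPM with CHX. In vehicle replicates 1 to 6 it stood at 7.63, 3.66, 1.10, 3.32, 6.27 and 1.20 CPM. Vehicle replicates 1 and 5 were above every library of the other groups, replicates 3 and 6 below every one of them, and replicates 2 and 4 slightly above the highest. The means were 2.89 ± 0.344 CPM at day 0, 3.86 ± 2.65 CPM with vehicle and 2.27 ± 0.475 CPM with CHX (SD, n = 6 each). For vehicle against day 0 the log2 fold change was 0.42 (standard error, SE, 0.35) and did not pass (adjusted p = 0.272, edgeR), so that a rise of the group could not be told from the spread of its libraries.

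The spread of jhamt among vehicle flies was beyond counting error. Replicate 3 had 32 counts, with an exact Poisson 95% interval of 21.9 to 45.2, and replicate 1 had 236, with 207 to 268, and these intervals cover counting error only. The highest vehicle library had 6.96 times the level of the lowest, against 1.35 times at day 0 and 1.72 times with CHX. Of 1361 features within 2-fold of its mean level in vehicle flies, 51 (3.75%) spread as widely, and at day 0 91.5% of such features spread at least as widely as jhamt. CHX against vehicle gave a log2 fold change of -0.77 (SE 0.36, adjusted p = 0.0530, edgeR), just short of the threshold. Without vehicle replicate 3 it was -0.99 (adjusted p = 0.00478, edgeR) and without vehicle replicate 6 -0.95 (adjusted p = 0.0106), and over all alternatives adjusted p ran from 0.00269 to 0.341.

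Jhe, the esterase that cleaves JH, gave the largest change among the 8 genes. Its lowest, median and highest level was 8.78, 12.3 and 15.2 CPM at day 0 and 8.30, 11.8 and 16.3 CPM with CHX. In vehicle replicates 1 to 6 it stood at 0.453, 0.695, 0.720, 0.179, 0.364 and 0.371 CPM, from 5 to 23 counts per library. The vehicle libraries did not overlap with either other group, and the other groups overlapped each other over most of their range. From a mean of 12.1 ± 2.43 CPM at day 0 it fell to 0.464 ± 0.209 CPM with vehicle (SD, n = 6 each), giving a log2 fold change of -4.73 (SE 0.20, adjusted p = 1.25e-13, edgeR). With CHX it was 11.9 ± 3.00 CPM (SD, n = 6), giving a log2 fold change of 4.67 above vehicle (SE 0.20, adjusted p = 1.12e-13, edgeR). The summed level of 5 larval fat body markers was 1226 to 2157 CPM at day 0, 8.12 to 86.1 CPM with vehicle and 1263 to 2261 CPM with CHX, and its part in the change of Jhe was not tested. Jhedup, a related esterase gene, fell with vehicle too, from 23.7 ± 3.56 to 7.09 ± 1.51 CPM (SD, n = 6 each; log2 fold change -1.73, adjusted p = 3.49e-10, edgeR).

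Jheh3, the single epoxide hydrolase of the cluster that could be measured, had a lowest, median and highest level of 22.9, 31.3 and 39.2 CPM at day 0, of 23.4, 28.7 and 42.3 CPM with vehicle and of 24.6, 30.3 and 38.4 CPM with CHX. All groups overlapped over nearly their whole range. Its log2 fold change was -0.04 (SE 0.16, adjusted p = 0.834, edgeR) for vehicle against day 0 and -0.00 (SE 0.16, adjusted p = 0.997) for CHX against vehicle. These values average over the name series described below, in which Jheh3 had values of opposite sign. Against day 0 its vehicle libraries without a hyphen in their name fell by 0.45 on the log2 scale (adjusted p = 0.0124, edgeR), while for those with one the log2 fold change was 0.34 (adjusted p = 0.0967).

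The receptor genes moved in opposite directions. Met had 16.4, 19.9 and 21.4 CPM (lowest, median, highest) at day 0, 27.7, 29.4 and 34.0 CPM with vehicle and 18.7, 22.2 and 24.4 CPM with CHX. Every vehicle library was above every other library. It rose from 19.5 ± 1.87 to 30.1 ± 2.47 CPM (SD, n = 6 each) with vehicle, a log2 fold change of 0.63 (SE 0.08, adjusted p = 1.14e-06, edgeR), and was 21.9 ± 2.09 CPM with CHX, a log2 fold change of -0.45 below vehicle (SE 0.08, adjusted p = 5.86e-05).

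gce (FBgn0261703, X from 15297766 to 15319074) had 30.8, 36.5 and 44.2 CPM (lowest, median, highest) at day 0, 14.6, 17.0 and 24.1 CPM with vehicle and 34.7, 38.3 and 45.1 CPM with CHX. Here every vehicle library was below every other library. The mean fell from 37.0 ± 5.19 to 18.7 ± 3.95 CPM (SD, n = 6 each), giving a log2 fold change of -0.99 (SE 0.13, adjusted p = 8.67e-07, edgeR), and stood at 39.5 ± 4.48 CPM with CHX (log2 fold change 1.08 over vehicle, SE 0.13, adjusted p = 2.53e-07).

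Since both genes were counted in the same libraries, their ratio does not depend on the scaling between libraries. Per unshared exon base, Met had 0.302 to 0.425 times the level of gce at day 0 (median 0.350), 0.925 to 1.28 times with vehicle (median 1.15) and 0.353 to 0.402 times with CHX (median 0.371). The vehicle ratios did not overlap with the others. Per unshared exon base, gce was still the higher of the pair in vehicle replicates 4 and 5, and Met in the other 4 vehicle libraries. By raw counts Met was the higher in every vehicle library, at 1.37 to 1.89 times gce. Which gene was higher on vehicle thus depends on the exon bases used and is not settled here.

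**Figure D3:**
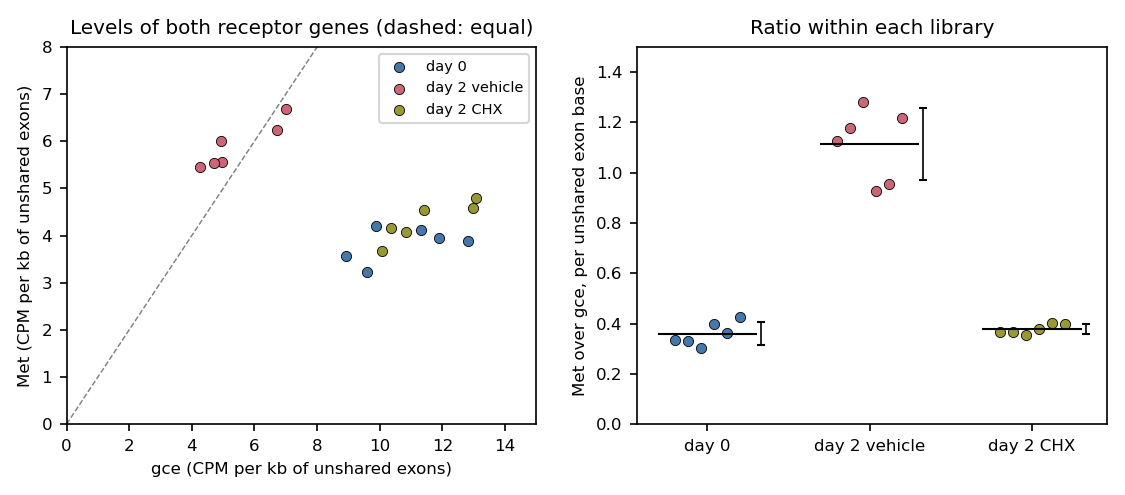
Left, Met against gce in each library, in CPM per kb of unshared exon, with a dashed line where both are equal; right, the ratio of Met to gce per unshared exon base in each library, with the mean as a line and the SD as a bar (n = 6). Vehicle libraries lie near or above the line of equal levels, with ratios of 0.925 to 1.28, and all others far below it, at 0.425 or less.

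Kr-h1, the target through which much of the JH response is relayed, varied about as much within each group as between them. Its lowest, median and highest level was 2.68, 5.90 and 10.2 CPM at day 0, 1.89, 2.97 and 8.85 CPM with vehicle and 1.74, 4.57 and 8.40 CPM with CHX. The groups overlapped nearly fully, and the highest library had 3.81 to 4.81 times the level of the lowest in each. Of features within 2-fold of its mean level, 2.74% spread at least as widely at day 0, 6.56% with vehicle and 1.68% with CHX. The log2 fold change was -0.54 (SE 0.44, adjusted p = 0.265, edgeR) for vehicle against day 0 and 0.28 (SE 0.45, adjusted p = 0.568) for CHX against vehicle. Without vehicle replicate 5, the highest of its group, the former was -0.97 and passed (adjusted p = 0.0406, edgeR). In 30 of the 31 alternatives it did not pass, and the values ran from -0.97 to -0.04.

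Levels of jhamt and Kr-h1 were also set side by side within libraries. Among vehicle libraries, replicates 1 and 5 had the highest level both of jhamt and of Kr-h1 (5.89 and 8.85 CPM), and replicate 3 the lowest of both. With CHX, replicates 2 and 3 had the highest level of both (jhamt 3.06 and 2.54 CPM, Kr-h1 8.40 and 8.24 CPM). The lowest of that group was replicate 6 for jhamt and replicate 1 for Kr-h1. At day 0, by contrast, replicate 5 had the highest Kr-h1 (10.2 CPM) and the lowest jhamt (2.41 CPM) of its group. Outside the vehicle group, day 0 replicate 5, with the highest Kr-h1, had the lowest share of counts in genes of the mitochondrial genome of its group, 16.9%, and CHX replicates 2 and 3, the highest 2 of theirs, had 16.6% and 15.6%, the lowest shares of that group. The part of these shares in the spread of Kr-h1 was not tested.

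JhI-21 (FBgn0028425, 2L from 12051755 to 12056042) had 19.8, 22.3 and 24.2 CPM (lowest, median, highest) at day 0, 50.3, 60.5 and 69.5 CPM with vehicle and 18.2, 20.3 and 21.4 CPM with CHX. Every vehicle library had over 2 times the level of every library outside the group. The mean rose from 22.1 ± 1.81 to 60.6 ± 6.68 CPM (SD, n = 6 each), giving a log2 fold change of 1.45 (SE 0.08, adjusted p = 3.66e-12, edgeR), and was 19.9 ± 1.17 CPM with CHX, a log2 fold change of -1.60 below vehicle (SE 0.08, adjusted p = 8.11e-13). The transporter mnd, a further amino acid carrier, rose as well, from 43.3 ± 8.18 to 79.1 ± 14.0 CPM (SD, n = 6 each; log2 fold change 0.88, adjusted p = 5.92e-06, edgeR).

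JhI-26 (FBgn0028424, 2R from 16289320 to 16291333) went the other way at low counts, from 20 to 100 per library. It had 1.44, 1.98 and 3.25 CPM (lowest, median, highest) at day 0, 0.604, 1.36 and 1.97 CPM with vehicle and 1.16, 2.51 and 2.84 CPM with CHX. The groups overlapped. It fell with vehicle by 0.68 on the log2 scale (SE 0.26, adjusted p = 0.0210, edgeR) and was 0.82 higher with CHX than with vehicle (SE 0.26, adjusted p = 0.00747). The fall was not kept without day 0 replicate 5 (log2 fold change -0.56, adjusted p = 0.0657, edgeR) or without vehicle replicate 2 (-0.55, adjusted p = 0.0566), nor with library sizes as the only scaling (-0.18, adjusted p = 0.542). The genes named for JH induction thus gave opposite signs with vehicle.

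For CHX against day 0, 0 of the 8 genes passed, as against 0.552% of all features (0% upward and 0.552% downward) by edgeR's quasi-likelihood test. None had an unadjusted p under 0.05, a threshold at which the share of all features was not counted. DESeq2 and limma-voom called 0 of the 8 too. The log2 fold changes ran from -0.35 (jhamt, SE 0.36) to 0.17 (Met, SE 0.08), and that of Jhe was -0.05 (SE 0.16). No gene of the 8 had groups that did not overlap, against 1.05% of all features. For Jhe, gce and JhI-21 the standard errors of 0.16, 0.13 and 0.08 were small against their changes with vehicle, whereas for jhamt, Kr-h1 and JhI-26 (SE 0.36, 0.44 and 0.26) a moderate difference from day 0 was not detectable here.

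**Figure D4:**
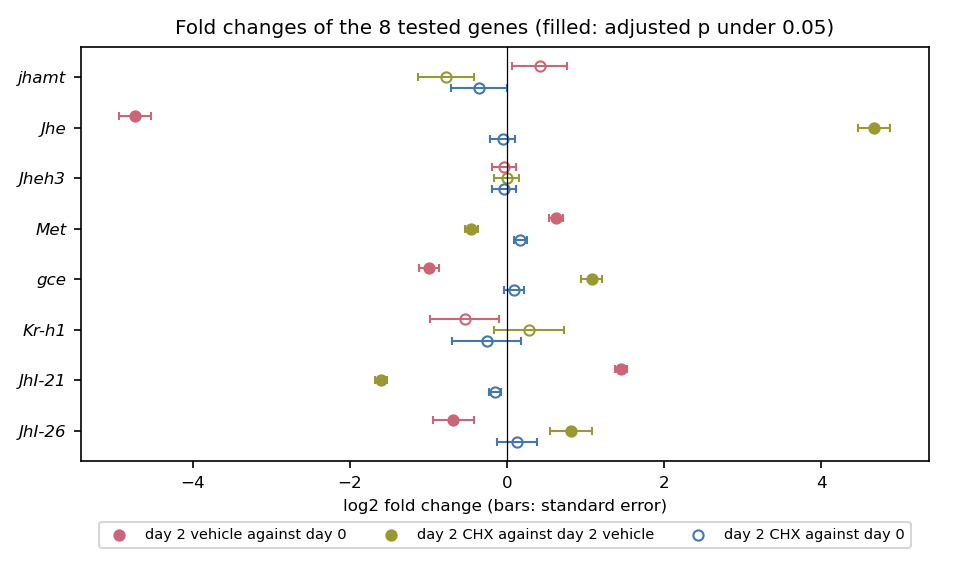
Log2 fold changes of the 8 tested genes with their standard errors, for vehicle against day 0 (red), CHX against vehicle (olive) and CHX against day 0 (blue); filled points passed an adjusted p under 0.05 in edgeR's test. Jhe lies at -4.73 and 4.67 in the comparisons with vehicle, and all blue points are open and lie between -0.35 and 0.17.

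The names of 3 libraries per group are written with a hyphen and those of the other 3 without one, a difference left unexplained in the labels, and each set is called a name series here. The changes of Jhe, Met, gce and JhI-21 were found within each series alone: for vehicle against day 0, Jhe had a log2 fold change of -4.40 in the hyphenated series and of -5.12 in the other, Met 0.58 and 0.67, gce -1.30 and -0.69, and JhI-21 1.53 and 1.38, with adjusted p from 0.0032 down to 2.19e-08 (edgeR). Jheh3 fell in the series without a hyphen (-0.45) and not in the other (0.34), as given above, and the difference between the series did not pass (-0.79, SE 0.23, adjusted p = 0.0761, edgeR). JhI-26 passed in the hyphenated series (-1.04, adjusted p = 0.0118, edgeR), and in the other its value was -0.42 (adjusted p = 0.264), and the difference of its change between the series did not pass (0.63, SE 0.47, adjusted p = 0.558).

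Within vehicle flies, 5 of 8 genes had series that did not overlap, against 18.8% of all features. In edgeR's test 0 passed, against 6.28% of all features (3.47% higher and 2.81% lower without a hyphen). In that test 5 had an unadjusted p under 0.05 (Jhe, Jheh3, gce, JhI-21 and JhI-26). The share of all features at that unadjusted threshold was not counted, so these 5 have no background to be set against. Jhe, Jheh3 and JhI-21 were lower and Met and JhI-26 higher in every library without a hyphen. JhI-26 came closest, with 0.821 ± 0.215 CPM in the hyphenated and 1.83 ± 0.143 CPM in the other vehicle libraries (SD, n = 3 each; log2 difference 1.15, adjusted p = 0.0537, edgeR), and it was the 1 gene called by DESeq2 (adjusted p = 0.0175). At day 0, 1 of 8 did not overlap, JhI-26, higher without a hyphen, and with CHX 3 of 8, jhamt and Jhe lower and Jheh3 higher, against 15.8% of all features in either group. Of the 8, 0 passed in edgeR's test at day 0, against 0.489% of all features (0.172% higher and 0.317% lower), and 0 with CHX, against 0.299% (0.208% higher and 0.0905% lower). There were 0 at day 0 and 2 with CHX (Jhe and Jheh3) at an unadjusted p under 0.05, again without a counted share of all features. DESeq2 called 0 in either group.

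The effect of CHX differed between the name series for 1 of the 8 genes, against 3.57% of all features (1.96% with a higher and 1.6% with a lower value without a hyphen). Jheh3 had a log2 fold change for CHX against vehicle of -0.42 (adjusted p = 0.0460, edgeR) in the hyphenated series and 0.45 (adjusted p = 0.0129) in the other, a difference of 0.87 (SE 0.23, adjusted p = 0.0479, edgeR). Vehicle libraries of the hyphenated series had 36.0 ± 6.22 CPM and the others 25.8 ± 2.13 CPM, and CHX libraries 27.0 ± 2.43 and 35.2 ± 3.72 CPM (SD, n = 3 each). The call was just under the threshold and was lost with RLE factors (adjusted p = 0.0628), upper quartile factors (0.0825), library sizes only (0.124) and a filter of at least 1 count (0.0584), and also on leaving out 12 of the 18 libraries 1 at a time (day 0 replicates 3, 5 and 6, vehicle replicates 1, 2, 4, 5 and 6, and CHX replicates 2, 3, 4 and 5), with adjusted p of up to 0.117. For the difference of the vehicle effect, 0 of 8 passed in edgeR's test, against 3.41% of all features (1.88% higher and 1.53% lower). There were 2 genes (gce and Jheh3) at an unadjusted p under 0.05, for which the share of all features was not counted. DESeq2 called 1 (Jheh3, adjusted p = 0.0404).

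Further genes of the pathway were followed in 5 lists, whose counts are to be read against the 82.9% of all features that changed with vehicle (41.8% upward and 41.1% downward) and the 42% upward and 41.3% downward for CHX against vehicle. In the mevalonate branch that makes the farnesyl precursor, 3 of 5 tested genes rose and 1 fell with vehicle, with a median log2 fold change of 0.29. Mvd and Pmvk, enzymes of its middle steps, rose (1.71 and 1.25, adjusted p = 1.37e-10 and 2.13e-07, edgeR), as did Hmgs, the synthase at its start (0.29, adjusted p = 0.000407), which was not called with upper quartile factors (0.07, adjusted p = 0.405). Idi, the isomerase after them, fell (-0.31, adjusted p = 0.0131, edgeR), a direction that flips to 0.19 with library sizes as the only scaling. Mvk, fully covered by another gene, could not be measured. All 5 genes of the late steps and breakdown fell with vehicle and rose with CHX against vehicle (median log2 fold changes -1.01 and 1.03). They include Jhedup, CG10527, similar to farnesoic acid methyltransferases (-1.02, adjusted p = 1.67e-07), Cyp6g2, a cytochrome P450 of the corpora allata (-1.01, adjusted p = 5.59e-06), and to, which encodes a protein of the family that binds JH (-0.55, adjusted p = 0.00174), whose rise with CHX flips to -0.12 with library sizes only.

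Of the partners of the receptors, 4 of 6 rose and 1 fell with vehicle (median 0.83), so that the share that changed was near that of all features. Those that rose were Fkbp39, an immunophilin that binds JH response elements (1.20, adjusted p = 2.20e-07, edgeR), Nup358, a nucleoporin of Met import (1.08, adjusted p = 4.83e-07), ftz-f1, a nuclear receptor (0.85, adjusted p = 2.85e-08), and Hsp83, a chaperone (0.81, adjusted p = 4.22e-09). Among genes of the JH response, 5 of 10 rose and 1 fell (median 0.30). The count depends on the scaling, being 3 in either direction under upper quartile factors. The ecdysone-inducible Eip74EF fell (-2.65, adjusted p = 1.22e-08), and the yolk protein genes Yp3 and Yp1 rose (2.31 and 1.25, adjusted p = 1.54e-05 and 4.70e-05), together with mnd. Yp genes are expressed in ovarian follicle cells as well as in fat body, and ovary markers were higher in vehicle flies, as given above.

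Of genes known to regulate the corpora allata, 15 of 19 fell and 3 rose with vehicle (median -1.32), where 41.1% of all features fell and 41.8% rose. With CHX against vehicle 14 rose and 3 fell (median 1.24), where 42% rose and 41.3% fell. They are peptides, peptide receptors and signaling genes of nerve cells to a large part. Ilp3, an insulin-like peptide of the brain, fell from 4.05 ± 0.840 to 0.250 ± 0.180 CPM (SD, n = 6 each; log2 fold change -4.00, adjusted p = 6.41e-10, edgeR). The glutamate receptor genes Nmdar2 and Nmdar1 (-2.26 and -2.22, adjusted p = 1.29e-09 and 2.63e-07) and the allatostatin C receptor gene AstC-R2 (-2.08, adjusted p = 8.39e-09) followed. The 5 neuron markers all fell with vehicle too, by 1.21 to 2.15 on the log2 scale, and their part in the change of this list was not tested. Against day 0, CHX left 0 genes of any of the 5 lists past the threshold, where 0.552% of all features passed (0% upward and 0.552% downward).

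**Figure D5:**
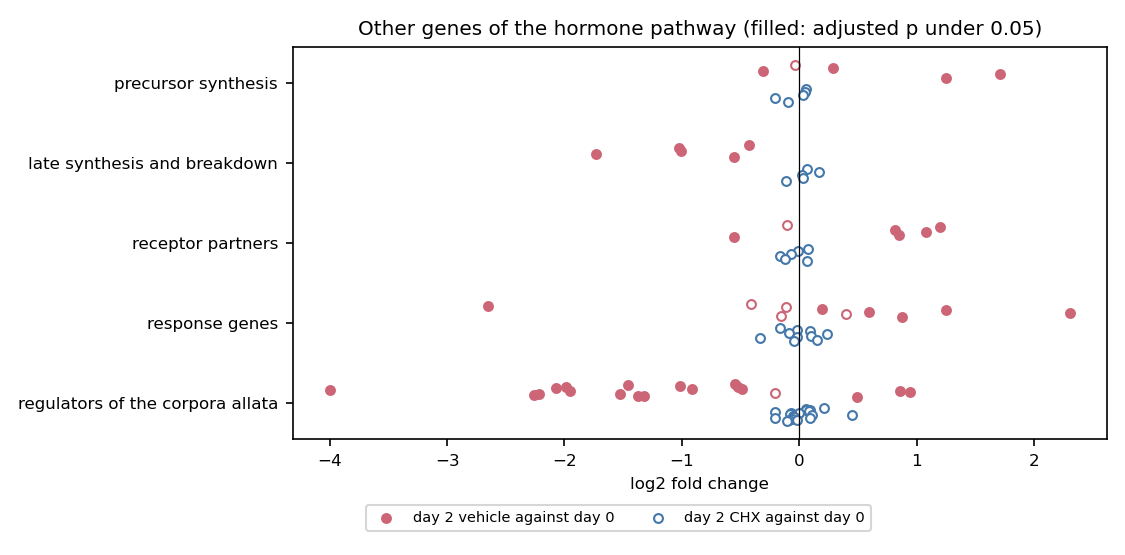
Log2 fold changes of the tested genes of 5 further lists of the hormone pathway, for vehicle against day 0 (red) and CHX against day 0 (blue), filled where the adjusted p was under 0.05 in edgeR's test. Red points spread from -4.00 to 2.31, all 5 in late synthesis and breakdown below 0, and all blue points are open.

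By the correlation of log2 CPM over the 18 libraries, the features most like jhamt were Nep2, a neprilysin peptidase (r = 0.84), Oseg4 and Neurl4 (both r = 0.76). The level of Nep2 ranged from 20.7 to 75.5 CPM among vehicle libraries, against 42.0 to 44.2 CPM at day 0 and 40.3 to 45.4 CPM with CHX. Most like Jhe were CG4702, CG13403 and obst-A, a chitin-binding protein of the cuticle (all r = 0.99). CG13403 went from a median of 21.4 CPM at day 0 to 0.125 CPM with vehicle and 21.6 CPM with CHX, so that these high values of r follow the difference between groups. Most like Kr-h1 were lbk, ATP8A and Abca3 (r = 0.96, 0.95 and 0.93), whose ranges overlapped between all groups. These values describe 18 libraries that share groups, depth and composition, and carry no test.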

How the data were processed

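The authors deposited whole-number counts per feature, not normalized, 1 column per library (0 columns left unused). HTSeq 0.12.3, STAR 2.7.10a and bcl2fastq 2.18.0.12 stand in the submitters' processing notes, with BDGP6 as the build. The sources used here do not give the counting settings. Rows of unassigned reads (a median of 10.5% of each column) were left out. Of 23932 features, 23366 matched a symbol in Ensembl release 115 (BDGP6.54).

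In R 4.3.3, edgeR 4.0.16 was run with filterByExpr and TMM factors. The robust quasi-likelihood fit held all 18 libraries with the name series as a covariate, and p-values over 11051 features were adjusted by Benjamini and Hochberg's method. The series were compared in a fit of their 6 combinations with the groups. Standard errors were derived from F. Correlations used a prior count of 2. The members and gene lists were chosen with earlier results of these data known. Named were all members, for each list at most the 4 passing genes that moved most between day 0 and vehicle, and the 3 features most like jhamt, Jhe and Kr-h1. CG45075, the antisense RNAs and the comparison of spreads were taken up after values were seen. Of 94 listed symbols 1 is not used here, and 1 further gene of precursor synthesis is not reported here.

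Alternatives were RLE and upper quartile factors, library sizes only, DESeq2 1.42.0, limma-voom (limma 3.58.1), a minimum of 1 count in all or of 10 in every library, no series term, a replicate block, no 20 most abundant genes, only the 2 groups compared, each series alone, and leaving out each library. The name series were compared only under the other scalings, DESeq2, the minimum of 1 count and leaving out libraries. Replicate pairs differed by a chi-square of at least 11.3 per degree of freedom, more than counting error alone. Each library was kept as its own replicate, but this check cannot tell separate cultures from separate preparations of the same flies. On simulated data with 200 changed genes among 11051, vehicle against day 0 recovered 88% of 2-fold and 99% of 4-fold changes (6 false of 193 calls), and the CHX effect by series 39% and 81% (12 false of 132). The simulated libraries otherwise had equal composition, and genes of low level were not among those changed. In the data 82.9% of features changed with vehicle, so these rates need not hold there. Figures were drawn with matplotlib 3.10.9 in Python 3.11.15.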

Additional observations from a re-analysis of the deposited data

Results flagged for a closer look

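JhI-26 in day 0 replicate 5, at 3.25 CPM, stood apart from the other 5 libraries of its group, the nearest of which had 2.04 CPM, by the gap between them relative to the range of the group. For normally distributed values such a gap is found by chance in about 5% of groups. It was looked for in each group of each gene with counts, so that a flag among them is not unusual. Without that library the fall of JhI-26 with vehicle did not pass.

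The effect of CHX on Jheh3 differed between the name series by 0.87 on the log2 scale (no hyphen minus hyphen, adjusted p = 0.0479, edgeR). The transporter gene mnd differed between the series in the effect of vehicle (-0.85, adjusted p = 0.00964, edgeR) and in the effect of CHX (0.68, adjusted p = 0.0337). The latter was not called with upper quartile factors (adjusted p = 0.0782, edgeR), library sizes only (0.0880) or a minimum of 1 count (0.0686), nor without day 0 replicate 3, vehicle replicates 1, 2, 4 or 6, or CHX replicates 2, 3, 5 or 6 (adjusted p up to 0.117). Its vehicle libraries had 91.5 ± 4.99 CPM in the hyphenated series and 66.7 ± 1.80 CPM in the other (SD, n = 3 each). What the name series mark is not given, so a batch and a difference between flies cannot be told apart.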

How the results depend on the processing

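Over 30 or 31 alternatives each, the calls of Jhe, Met, gce and JhI-21 against day 0 and between CHX and vehicle kept their direction and their side of the threshold, and no alternative called any of the 8 genes for CHX against day 0. Library sizes as the only scaling moved the median over all features to 0.49 on the log2 scale for vehicle against day 0 and to -0.53 for CHX against vehicle, and upper quartile factors to -0.22 and 0.26. With library sizes only, 4 genes rose with vehicle in place of 2 (also jhamt, 0.91, and Jheh3, whose value turned to 0.45) and 4 fell with CHX against vehicle in place of 2, while Idi turned to 0.19 with vehicle, and Idi and to became -0.21 and -0.12 for CHX against vehicle. Jheh3 was 0.45 for CHX against vehicle in the series without a hyphen. JhI-26 was not called for CHX against vehicle with library sizes only (0.28, adjusted p = 0.360, edgeR) or in that series (0.26, adjusted p = 0.491). jhamt was called for CHX against vehicle in DESeq2 (-0.75, adjusted p = 0.0390).

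Between the name series, upper quartile factors and DESeq2 gave 1 gene higher without a hyphen in vehicle flies in place of 0, and leaving out libraries 0 to 1 higher and 0 to 1 lower. For the vehicle effect by series, DESeq2 gave 1 gene with a lower value in place of 0, and leaving out libraries 0 to 1 in either direction. For the CHX effect by series, RLE factors, upper quartile factors, library sizes only and a minimum of 1 count gave 0 genes with a higher value in place of 1, and leaving out libraries 0 to 1 higher and 0 to 1 lower; the call of Jheh3 was lost without day 0 replicates 3, 5 or 6, vehicle replicates 1, 2, 4, 5 or 6, or CHX replicates 2, 3, 4 or 5 (adjusted p 0.0535 to 0.117, edgeR). Changes of sign between values that were both not called are not listed, and the cause of these shifts was not tested.

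For the gene lists, library sizes only gave 0 of the precursor genes, 3 of the late genes and 0 receptor partners falling with vehicle, and for CHX against vehicle 0 precursor genes, 3 late genes, 0 receptor partners and 1 response gene rising and 5 precursor genes falling. Of the response genes, 3 rose with vehicle without the 20 most abundant genes, with only the 2 groups compared and in the series without a hyphen, and 2 to 3 fell in DESeq2, with at least 10 counts in every library and in that series. The receptor partners that fell with vehicle were 2 with upper quartile factors and with at least 10 counts in every library, and those that rose with CHX were 1 to 2 on leaving out libraries. With upper quartile factors 2 precursor genes fell with vehicle in place of 1, and in the hyphenated series 0 precursor genes and 3 late genes fell. DESeq2 and limma-voom called 125 and 22 features lower with CHX than at day 0, against 61. Replicate numbers did not pair the libraries (correlations of deviations with the same number from -0.29 to 0.54), and with the replicate block 2 genes rose and 3 fell with vehicle, as without it.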
